A study of Mus musculus with 35 samples.

Results

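Mouse embryonic fibroblasts (MEFs), primary cells with the growth and matrix genes of connective tissue, were followed after addition of methyl methanesulfonate (MMS), and the transcripts of the treated cells at 72 h were compared directly with those at 24 h. The comparison rests on 7 of the 35 arrays of the series, 4 of MMS 24 h and 3 of MMS 72 h, chosen by their labels alone, and covers all 14135 genes above the array background. The cells came from embryos of C57BL6/J mice at day 15.5 and had been expanded for 2 passages, as labelled. The fetal liver and head were taken off before culture by the methods, which name a younger age and more passages. MMS was given at 40 µg/mL in fresh medium, the control cells received fresh medium alone, and no other allele or agent separates the groups. Control 24 h and control 72 h, with 4 arrays each, show how the same cells changed over this interval without the agent. Replicate 4 of MMS 72 h was not analysed here. The methods name quadruplicates, but not whether these came from separate embryos or cultures. The p-values reflect how far arrays of the same group differ, pooled over the 9 groups of the 35 arrays. That spread may be technical.

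MMS transfers methyl groups to DNA bases and to thiol groups of proteins and of glutathione. Methylated bases are removed by base excision repair, and those that block replication call on homologous recombination and arrest the cell cycle through p53. Modified thiols free the transcription factor NRF2 from its inhibitor, which raises the enzymes that make glutathione and detoxify electrophiles. The unfolded protein response and the integrated stress response, with ATF4 as its main transcription factor, lower protein synthesis and raise chaperones or the import and synthesis of amino acids. Proliferating MEFs also lower their cell cycle genes as they become dense, which is why the time course of the control cells is given beside each change.

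The arrays were those of fibroblasts. Of 20 fibroblast markers, 19 or 20 reached the background limit of log2 4.40 on every MMS array. Their mean was 10.21 to 10.43 on the log2 scale at 24 h and 11.29 to 11.44 at 72 h. Replicate 3 of both MMS groups, however, also held transcripts of intestinal epithelium. The mean of 30 intestinal markers was 8.95 in MMS 24 h replicate 3 against at most 4.27 in the other 3 arrays, with 27 markers more than 1 log2 unit above them. In MMS 72 h replicate 3 it was 5.84 against 4.28 and 4.30, with 17 markers above. Fabp2, a fatty acid binding protein of the gut, was at 12.56 and 8.17 on these arrays and between 2.99 and 3.47 on the 5 others. Control 24 h replicate 4 had a weaker trace, with 7 markers above the others. In a cell population, fewer cells of a type and less RNA per cell cannot be told apart. Both arrays also lay towards the opposite time point. In the set of 469 genes that were higher at 72 h by 2-fold or more, MMS 72 h replicate 3 was the lowest of its 3 arrays for 380 (81%), and in the set of 504 genes lower by as much it was the highest for 406 (80.6%). MMS 24 h replicate 3 was the array of its 4 that lay nearest to 72 h for 298 (63.5%) and 291 (57.7%) of these genes. These counts were made after the values were seen, and the part of the intestinal transcripts in them was not tested. Each result below was computed again without replicate 3 of both groups, and the medians of the 2 sets then moved from 1.39 to 1.53 and from -1.57 to -1.68, so these medians were smaller with all arrays.

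Between 24 and 72 h of MMS, 2856 genes (20.2% of 14135) were higher and 3430 (24.3%) were lower at an adjusted p under 0.05 in limma, and 469 (3.32%) and 504 (3.57%) of these changed at least 2-fold. The median change was -0.01 on the log2 scale. Higher genes made up 45.4% of those called, and 56.4% when each array was centred on its median, which shifted the median change to 0.07. Of the 6286 genes called, 5591 were also called in the same direction without replicate 3, as were 971 of the 973 genes called at 2-fold. The arrays of the 2 times did not overlap for 467 of the 469 higher and 501 of the 504 lower genes. These genes were selected on the same arrays, so little overlap follows from the selection. Over all genes tested, the arrays did not overlap for 21.7% in the higher and 24.9% in the lower direction.

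Much of the movement also occurred without MMS. In control cells 2595 genes (18.4%) were higher and 2655 (18.8%) lower at 72 h than at 24 h. Of the 6286 genes called in MMS-treated cells, 3071 were called in the same direction in control cells and 534 in the opposite one. The change differed between treated and control cells, by the interaction term of the model, for 1759 genes (12.4%) in the higher and 2339 (16.5%) in the lower direction. With each array centred on its median the balance turned, to 2265 higher and 1525 lower (59.8% in place of 42.9% higher), as the median over all genes moved from -0.04 to 0.07. For 3002 of the 6286 genes the interaction was called with the sign of the change in the treated cells. The interaction contains the change on which these genes were selected, so agreement in sign is partly built in.

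To sort responses that faded, persisted or began late, MMS was set against control at each time. MMS raised 3540 genes (25%) and lowered 2745 (19.4%) at 24 h, and raised 1426 (10.1%) and lowered 1469 (10.4%) at 72 h. With centred arrays 2736 were raised and 3376 lowered at 24 h, and 1518 and 1194 at 72 h, so which direction was the more frequent depends on the scaling. A response was called faded when a gene was called at 24 h and the interaction ran against it, persisted when it was called with the same sign at both times and the interaction was not called, and late when it was called at 72 h alone and the interaction had the same sign. By this rule 1936 raised genes (13.7%) and 1442 lowered genes (10.2%) faded, 521 raised (3.69%) and 480 lowered (3.4%) persisted, and 214 raised (1.51%) and 279 lowered (1.97%) began late. With centred arrays lowered genes that faded were the larger class, with 1857 against 1235 raised, and the late classes turned as well, with 261 raised and 206 lowered, while 509 raised and 428 lowered genes persisted. Without replicate 3, 1683, 1334, 372, 287, 147 and 184 of these genes, in the same order, stayed in their class. Fading did not always mean a return to the control level. Of the raised genes that faded, 235 were still raised and 226 were lowered at 72 h, and of the lowered ones 222 were still lowered and 239 were raised.

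**Figure D1:**
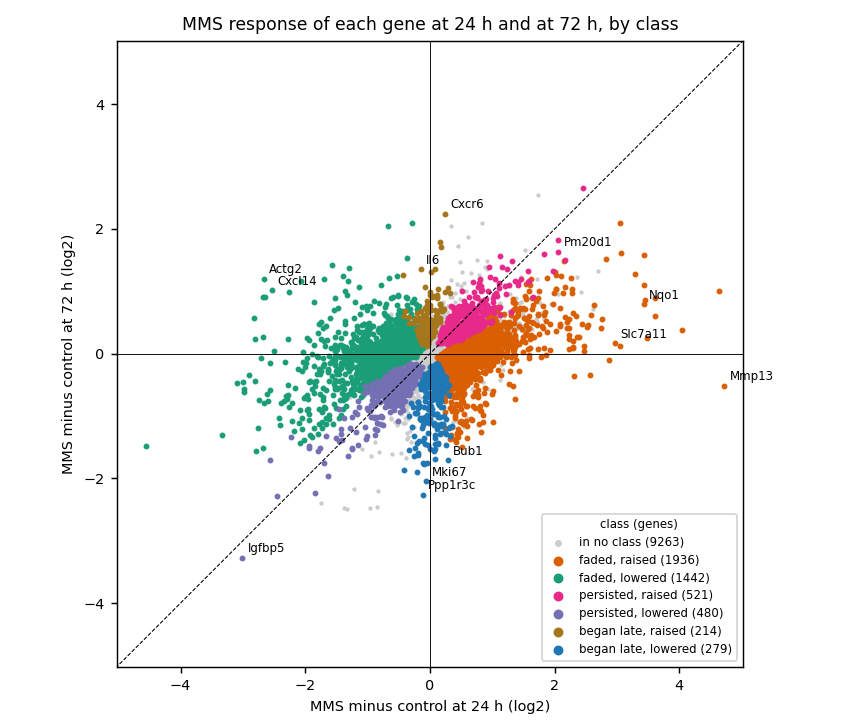
Each point is 1 of 14135 genes, with the log2 difference between MMS and control at 24 h on the horizontal axis and at 72 h on the vertical axis, coloured by response class. The faded genes, 1936 raised and 1442 lowered, spread along the horizontal axis, such as Gsta4 (4.64 at 24 h and 1.00 at 72 h), while Igfbp5 lies near the dashed line of equal effects (-3.02 and -3.28).

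Among gene lists, those of cell division, DNA replication and NRF2 targets fell most between 24 and 72 h of MMS, and those of collagens, fibroblast markers (0.94), insulin-like growth factors and their binding proteins, sterol synthesis and proteoglycans rose most, by their medians. The lists and their members were chosen with earlier results of these data known, so their counts and medians are descriptions.

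**Figure D2:**
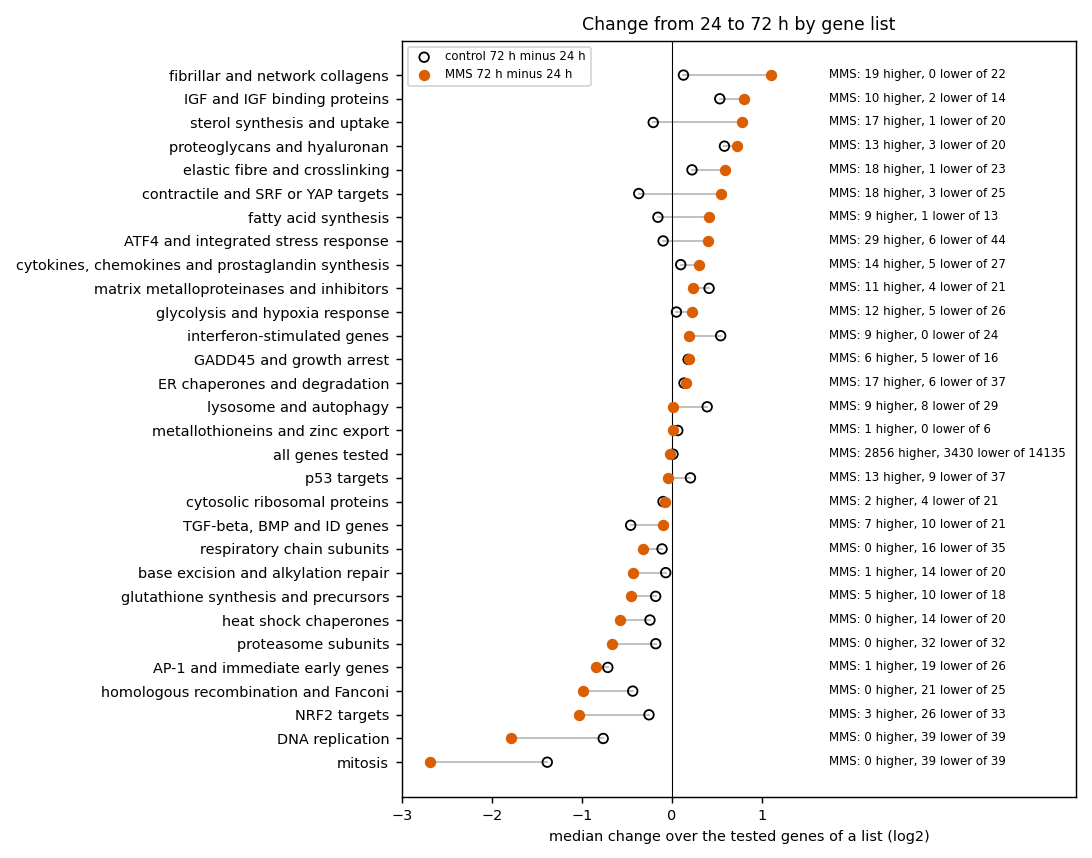
Filled points give the median log2 change from 24 to 72 h of MMS over the tested genes of each list and open points that of the control cells, with the number of genes higher and lower in MMS-treated cells at the right. Mitosis lies at -2.69 with MMS and -1.38 without, and the contractile list moves in opposite directions, 0.55 with MMS and -0.37 without.

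Most antioxidant and detoxification genes under NRF2 were raised at 24 h of MMS and fell by 72 h. Of 33 tested NRF2 targets, 26 fell and 3 rose between 24 and 72 h of MMS, with a median of -1.03, against 24.3% and 20.2% of all genes and a median of -0.01. At 24 h MMS had raised 27 of them with a median of 1.22, at 72 h 17 were raised with a median of 0.29, and 24 fell into the class of raised genes that faded. In control cells 15 fell and 7 rose.

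Nqo1, a quinone reductase, was at log2 10.41, 10.42, 10.19 and 10.31 on the MMS 24 h arrays (replicates 1 to 4) and at 6.46, 6.67 and 7.80 on the MMS 72 h arrays (replicates 1 to 3). All 72 h arrays lay below all 24 h arrays, which the naming of the 10 largest falls required. Replicate 3 was the highest 72 h array. The fall was 10.2-fold (log2 -3.36 ± 0.20 SE, adjusted p = 1.4e-14), and 72 h remained above the control mean of 6.18 by 0.80 (adjusted p = 0.0044). Slc7a11, the cystine transporter that feeds glutathione synthesis, was at 8.23, 7.91, 8.21 and 8.14 at 24 h and at 4.50, 4.69 and 5.15 at 72 h. The fall was 10.1-fold (log2 -3.34 ± 0.12, adjusted p = 3.8e-19), and at 72 h the difference from control was not called (0.16, adjusted p = 0.43). Gsta4, a glutathione S-transferase for lipid aldehydes, was at 11.90, 11.90, 11.68 and 12.03 and then at 8.20, 8.05 and 9.36. Its effect of MMS shrank from 4.64 to 1.00, and both values were called (adjusted p = 2.6e-14 and 0.018).

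The subunits of glutamate-cysteine ligase, which starts glutathione synthesis, faded at unequal rates. Gclm, the modifier subunit of glutamate-cysteine ligase, was at 11.50, 11.56, 11.42 and 11.44 at 24 h and at 9.29, 8.97 and 9.53 at 72 h. The catalytic partner Gclc was at 11.06, 11.01, 10.88 and 10.93 and then at 9.70, 9.53 and 9.77. The MMS effect on Gclm went from 2.20 to 0.41, and that on Gclc from 2.03 to 1.26, each with the interaction called (adjusted p = 1.3e-09 and 6.2e-06). Glul, the glutamine synthetase, fell by 0.85 (adjusted p = 5e-04), a change that was as large with the replicate number as a block (-0.83) but no longer called (adjusted p = 0.12). MMS 24 h replicate 3, at 6.24, overlapped with the 72 h arrays at 5.86, 6.25 and 6.34, and the change of the MMS effect was not called (-0.32, adjusted p = 0.43). Over the 18 tested genes of glutathione synthesis and its precursors, 10 fell and 5 rose with a median of -0.46. Without replicate 3, 8 fell and 4 rose with a median of -0.27. At 24 h MMS had raised 8 and lowered 6 of the 18, and 6 were raised genes that faded.

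Blvrb, a biliverdin and flavin reductase, fell by 3.26 (adjusted p = 9.8e-16) from a 24 h mean 3.61 above control to one 0.60 above it. Gsta2, a further glutathione S-transferase whose probes may also bind transcripts of near-identical family members, fell at least 6.23-fold (adjusted p = 5e-12). All its control arrays and all 3 MMS 72 h arrays lay below the background limit, and the bound sets such values to that limit, here and for the genes below. Nfe2l2, the gene of NRF2 itself, was at 10.42 to 10.68 at 24 h and 10.29 to 10.46 at 72 h, a difference of -0.19 that was not called (adjusted p = 0.16) but was with array weights (-0.17, adjusted p = 0.015). Ephx1, an epoxide hydrolase on the same list, rose by 0.75 (adjusted p = 1.7e-10), as it did in control cells (0.63, adjusted p = 3.1e-09). The largest fall of all genes named here was that of Lce1f, a protein of the late cornified envelope of skin. It was at 8.67, 8.81, 8.75 and 8.61 at 24 h and at 3.55, 3.88 and 5.85 at 72 h, a fall of at least 14.2-fold (adjusted p = 1.4e-13), since 2 of the 72 h arrays lay below the background limit. Replicate 3 was the highest 72 h array here too. Sprr1a, of the same structure, fell by 2.83 (adjusted p = 5.9e-13). Of the 13 tested genes of a cornified envelope list, which holds Sprr1a but not Lce1f, 1 rose, 1 fell and 11 were not called.

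NRF2 binds antioxidant response elements, and the letters TGACNNNGC were searched on both strands of RefSeq promoter windows (GRCm38.p6, from 250 bases before to 50 after each start). Only these letters were searched, so elements that vary from them were neither counted nor marked. Of the 27 NRF2 targets with a window, 9 held a match (33.3%), against 16.6% of the 11359 tested genes with a window, and all 9 fell between 24 and 72 h. Since 26 of all 33 tested NRF2 targets fell, the fall sets these 9 little apart from the rest of the list. The window of Srxn1, the sulfiredoxin that restores peroxiredoxins, is shown because it fell most among these 9 (log2 -2.69 ± 0.18, adjusted p = 1.5e-13), a choice made after the values were seen. It was at 11.45, 11.36, 11.29 and 11.34 at 24 h and at 8.54, 8.38 and 9.09 at 72 h. The match, in capitals, is a description of the letters and not a shown binding site (chr2:152105274-152105573, plus strand).
Srxn1: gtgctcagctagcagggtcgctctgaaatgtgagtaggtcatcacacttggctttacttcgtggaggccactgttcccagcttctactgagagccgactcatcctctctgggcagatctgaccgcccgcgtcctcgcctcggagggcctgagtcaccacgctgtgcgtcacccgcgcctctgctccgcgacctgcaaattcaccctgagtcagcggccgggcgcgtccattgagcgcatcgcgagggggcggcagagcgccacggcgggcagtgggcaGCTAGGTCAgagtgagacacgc

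Cell division genes had the lowest median of the lists tested. All 39 tested mitosis genes were lower at 72 h than at 24 h of MMS, with a median of -2.69, and 38 of them were also lower in control cells, with a median of -1.38. The fall was larger with MMS for 38 of 39 by the interaction term, where 16.5% of all genes were called in that direction. At 24 h 25 of these genes were not called against control, 11 were raised and 3 were lowered. At 72 h 37 were lowered against control, with a median of -1.15, and 24 of them belonged to the class of late lowering and 11 to that of faded raised genes. Without replicate 3 these classes held 20 and 16.

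Bub1, a kinase of the spindle checkpoint, was at 9.76, 9.72, 9.72 and 9.88 at 24 h and at 5.97 and 5.98 in replicates 1 and 2 of 72 h. The 10.9-fold fall (log2 -3.45 ± 0.17, adjusted p = 8.1e-17) compares with -1.46 in control cells. Replicate 3 of 72 h lay 1 log2 unit above these 2 and below all 24 h arrays, as the naming of the 10 largest falls required. Without replicate 3 the change was -3.81, and the class of Bub1 changed from late lowering to faded raising, as it did for Birc5 and Cep55. Birc5, or survivin, of the chromosomal passenger complex, changed by -3.30 and Cep55, which acts in the final abscission of daughter cells, by -3.43 (adjusted p = 1.8e-16 and 5.1e-18). Mki67, the proliferation marker, was in the late class with and without replicate 3. It was at 10.25, 10.13, 10.12 and 10.07 at 24 h, -0.06 from the control mean (adjusted p = 0.78), and at 6.90, 6.56 and 7.55 at 72 h, 2.05 below control (adjusted p = 2.6e-11). Nuf2, of the kinetochore, and Pclaf, a partner of the replication clamp, behaved likewise, with changes of -3.16 and -2.97 and effects at 72 h of -1.76 and -1.70.

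DNA replication genes differed from mitosis genes in their level at 24 h. All 39 tested were lower at 72 h, with a median of -1.79 (control -0.76, 38 lower), but 35 of 39 had been raised by MMS at 24 h, with a median of 0.45, and 31 were lowered at 72 h. Thus 34 were faded raised genes, 36 without replicate 3, and the median MMS effect went from 0.45 to -0.62. Cdc6, which loads the replicative helicase, was at 8.32, 8.30, 8.31 and 8.29 at 24 h, 0.83 above control, and at 5.20, 4.83 and 5.65 at 72 h, 1.25 below control (adjusted p = 1.9e-07 and 1.4e-09). Mcm5, a subunit of that helicase, and Prim1, the primase, each changed by -3.04 (adjusted p = 2.2e-17 and 9.4e-17). Tk1, the thymidine kinase of S phase, was not called at 24 h (0.08, adjusted p = 0.64) and was 1.53 lower than control at 72 h.

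Promoter windows of both lists are shown because their members moved together. The cell cycle homology region TTTGAA, read by the DREAM and MuvB complexes, was found in 26 of 33 mitosis genes with a window (78.8%) and in 14.6% of all tested genes with a window. An E2F site of the letters TTTCCCGC or TTTGGCGC was found in 11 of 32 DNA replication genes with a window (34.4%) and in 3.14% of all tested genes with a window. Both strands were searched. All members with a match fell between 24 and 72 h, but so did all 39 tested genes of each list, so the match separates no members. Cep55 (chr19:38054734-38055033, plus strand) and Cdc6 (chr11:98907901-98908200, plus strand) fell most among the members with a match, and capitals mark the match.
Cep55: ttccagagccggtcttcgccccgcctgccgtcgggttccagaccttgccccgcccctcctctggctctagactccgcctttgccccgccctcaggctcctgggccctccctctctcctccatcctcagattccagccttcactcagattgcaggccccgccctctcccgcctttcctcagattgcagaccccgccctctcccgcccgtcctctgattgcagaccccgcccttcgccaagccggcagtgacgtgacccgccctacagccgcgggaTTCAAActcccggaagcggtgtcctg
Cdc6: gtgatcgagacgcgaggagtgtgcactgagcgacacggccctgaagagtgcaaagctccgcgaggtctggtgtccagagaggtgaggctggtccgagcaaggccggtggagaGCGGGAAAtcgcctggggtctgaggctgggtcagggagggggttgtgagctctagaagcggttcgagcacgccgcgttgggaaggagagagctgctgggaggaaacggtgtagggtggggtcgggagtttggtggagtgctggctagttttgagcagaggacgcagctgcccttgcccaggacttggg

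**Figure D3:**
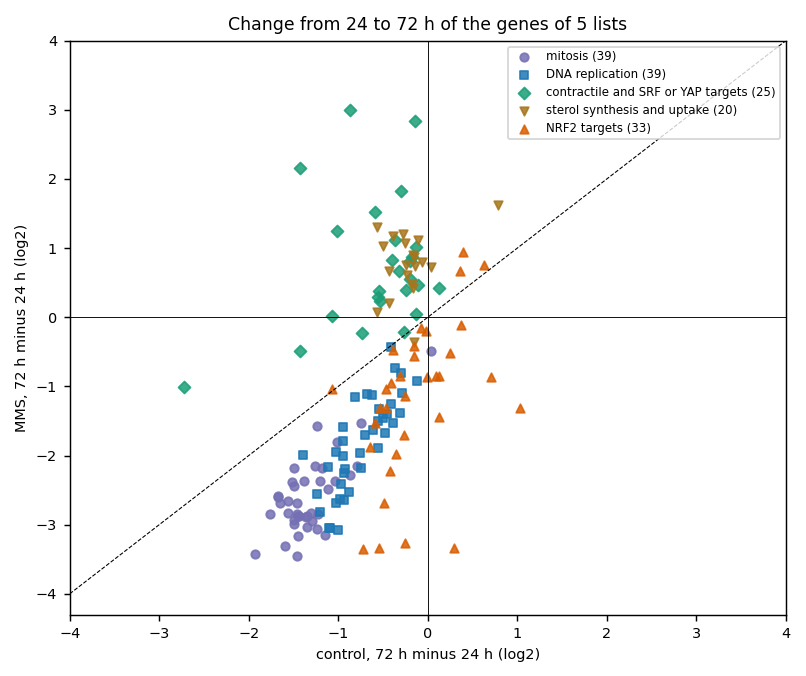
Each point is a tested gene of 1 of 5 lists, with its log2 change from 24 to 72 h in control cells on the horizontal and in MMS-treated cells on the vertical axis. Mitosis and DNA replication genes lie in the lower left, mostly below the dashed line of equal change, while contractile genes, of which 18 of 25 rose with MMS and 19 fell without, lie above it.

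Repair genes fell with replication. Of 25 tested genes of homologous recombination and the Fanconi pathway, 21 fell and none rose, with a median of -0.98, against -0.43 in control cells, and 15 had been raised at 24 h. Brca1, a central factor of recombination, was at 8.05, 7.94, 7.68 and 7.93 at 24 h and at 4.95, 4.85 and 5.72 at 72 h, and its MMS effect went from 0.82 to -0.93 (interaction adjusted p = 2.3e-08). Exo1, a resection nuclease, Rad51ap1, which stimulates strand pairing, and Rad54l, a motor of strand exchange, changed by -2.87, -2.73 and -2.65 (adjusted p = 1.5e-16, 3.4e-15 and 2.5e-17). Base excision and direct repair genes moved less. Of 20 tested, 14 fell and 1 rose, with a median of -0.43, while 4 fell and 3 rose in control cells. Neil3, a glycosylase, Mbd4, which removes mismatched thymine or uracil, and Xrcc1, the scaffold of single-strand break repair, changed by -0.90, -0.78 and -0.66 (adjusted p = 1.6e-07, 1.6e-05 and 1.8e-05), each raised at 24 h and faded. Mbd4 rose by 0.39 in control cells over the same time. Parp1, which senses breaks, fell by 0.64 and was lowered by 0.28 at 72 h alone. Mgmt, which takes methyl groups off guanine, was the 1 gene that rose (0.32, adjusted p = 0.018). Its call was lost without replicate 3 (0.29, adjusted p = 0.06), without MMS 24 h replicate 3 or MMS 72 h replicate 1 alone (0.23 each, adjusted p = 0.088 and 0.13) and with the replicate number as a block (adjusted p = 0.071).

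Extracellular matrix genes moved the other way. MMS had lowered 19 of 22 tested collagen genes at 24 h, with a median of -1.16, and 19 of 22 rose between 24 and 72 h, with a median of 1.10 (control 0.13, 10 higher and 2 lower). At 72 h 10 were lowered, with a median of -0.25, and 16 were lowered genes that faded. Col3a1, a collagen of elastic tissues, was at 9.69, 9.66, 11.33 and 9.90 at 24 h and at 13.83, 13.73 and 13.62 at 72 h. MMS 24 h replicate 3 lay more than 1 log2 unit above the other 3. All 24 h arrays were below all 72 h arrays, which the naming of the 10 largest rises required. The rise was 12.0-fold (log2 3.58 ± 0.20, adjusted p = 4e-15) and 4.03 without replicate 3, with a control rise of 0.96, and the effect of -3.09 at 24 h shrank to -0.47 at 72 h (adjusted p = 0.11). Col1a1, the main chain of the collagen of bone and skin, rose by 1.90 and Col5a1, which starts its fibrils, by 1.89 (adjusted p = 1.7e-15 and 7.6e-19), while neither was called in control cells (0.11 and 0.06, adjusted p = 0.41 and 0.58).

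Of 23 tested genes of elastic fibres and crosslinking, 18 rose and 1 fell, and of 20 proteoglycan and hyaluronan genes, 13 rose and 3 fell. The median of the latter was 0.73 with MMS and 0.59 without, and the change differed from that of control cells for 14 of them, upward for 9 and downward for 5. Aspn, or asporin, a small leucine-rich proteoglycan, was at 5.86, 5.58, 7.65 and 5.67 at 24 h and at 9.85, 10.20 and 10.03 at 72 h, a 14.3-fold rise (log2 3.84 ± 0.29, adjusted p = 2.2e-12) that left it -1.30 from control (adjusted p = 0.0012). Ogn, or osteoglycin, rose by 3.19 and Fbn2, a fibrillin, by 3.09 (adjusted p = 2.8e-14 and 8.9e-14), each still below control at 72 h. Lum, or lumican, rose by 2.46 with MMS but by 3.83 without, so that the MMS effect deepened from -0.83 to -2.20 (interaction adjusted p = 5.4e-05). Mfap5, of the microfibril, fell by 0.74 and was lowered at 72 h alone (-0.45, adjusted p = 0.00023). Has2, the hyaluronan synthase, changed by -1.58 with MMS and by -2.85 without, and its MMS effect grew from 0.83 to 2.10.

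Matrix proteases and their inhibitors moved in both directions. Mmp13, a collagenase, was at 7.99, 8.03, 7.82 and 7.94 on the MMS 24 h arrays and at 4.33, 4.09 and 5.14 on the MMS 72 h arrays. All control 24 h arrays and 2 of the MMS 72 h arrays lay below the background limit. Mmp13 fell at least 9.83-fold with MMS (adjusted p = 3.2e-13) and rose in control cells (adjusted p = 8.2e-08) to a mean of 5.03. At 24 h MMS raised it at least 11.7-fold over control, and at 72 h the difference was not called (-0.51, adjusted p = 0.14). The interaction was at least 3.93 downward on the log2 scale (adjusted p = 3e-13). Mmp10, or stromelysin 2, fell by 2.06 with no called change in control cells (0.12, adjusted p = 0.63). Timp3, an inhibitor of such proteases, rose by 1.54 (adjusted p = 3.2e-16), and its effect went from -1.01 at 24 h to 0.28 at 72 h. Plaur, the urokinase receptor, changed by -1.62 with MMS and -1.96 without and was raised at both times (0.79 and 1.13). In this list of 21 tested genes 11 rose and 4 fell, and in control cells 13 rose and 2 fell.

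**Figure D4:**
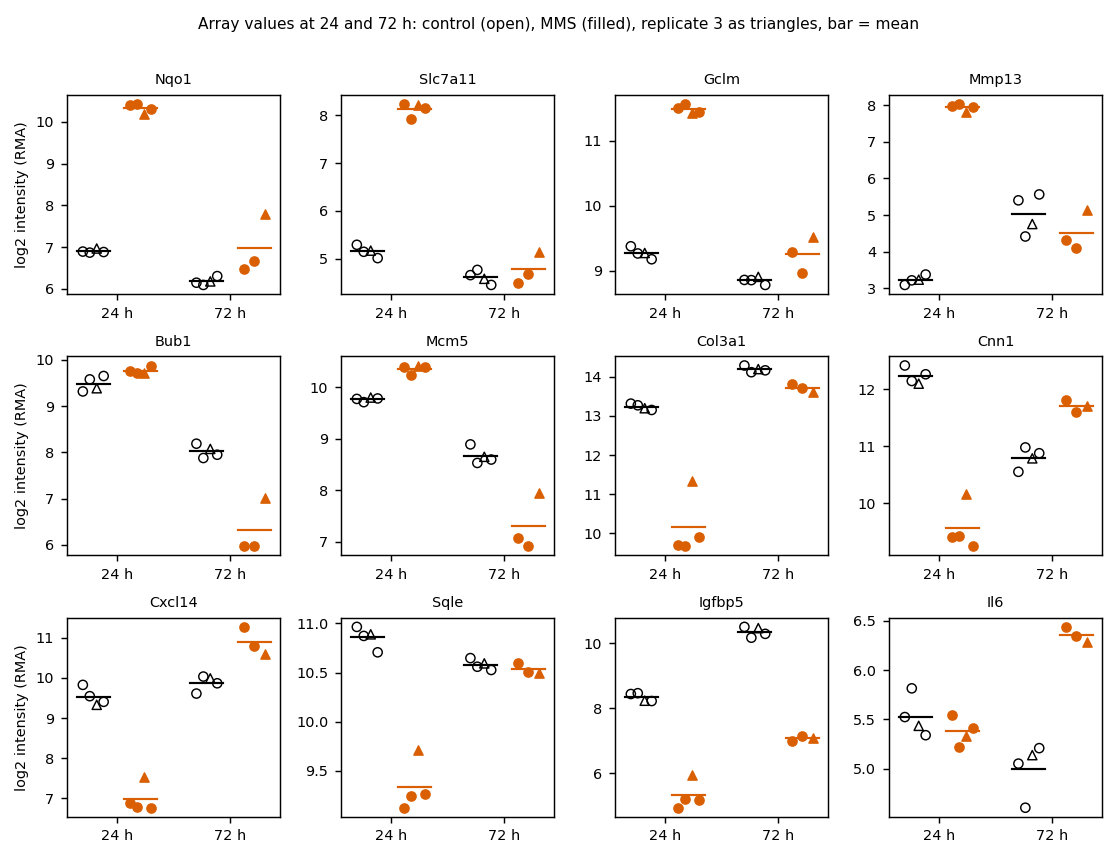
Log2 intensity of 12 genes on each array at 24 and 72 h, with control as open and MMS as filled symbols, replicate 3 as triangles and bars for group means. Nqo1, Slc7a11, Gclm and Mmp13 stand above all other arrays in MMS 24 h, Bub1 and Mcm5 lie below the control arrays at 72 h, and Il6 lies above them at 72 h (6.29 to 6.44).

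Contractile genes reversed their relation to control. Of 25 tested genes of the actin cytoskeleton and of SRF or YAP control, 18 rose and 3 fell from 24 to 72 h of MMS (median 0.55), while 1 rose and 19 fell in control cells (median -0.37). MMS had lowered 21 at 24 h, and at 72 h 18 were raised and none lowered. The interaction was called upward for 23, where 12.4% of all genes were. Actg2, smooth muscle gamma actin, was at 8.35, 8.11, 9.15 and 8.17 at 24 h and at 11.62, 11.44 and 11.27 at 72 h, while the control means fell from 11.11 to 10.25. Its effect went from -2.67 to 1.20 (adjusted p = 8.3e-17 and 5.6e-08). Cnn1, or calponin, was at 9.41, 9.43, 10.16 and 9.25 and then at 11.82, 11.61 and 11.71, and its effect went from -2.67 to 0.91. Myh11, the smooth muscle myosin heavy chain, rose by 2.84 and Myl9, a myosin light chain, by 1.82 (adjusted p = 1.6e-19 and 3.5e-16). Tgfb2, a transforming growth factor on this list, rose by 1.52 and fell by 0.59 in control cells. Ankrd1, a YAP target, and Tagln2, or transgelin 2, fell in treated cells (-1.02 and -0.48) and fell further in control cells (-2.72 and -1.43), with both interactions called (adjusted p = 6.4e-09 and 1e-08), and both ended above control.

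Ctnnd2, a catenin of cell junctions, and Lrrc17, a secreted leucine-rich repeat protein, belonged with Actg2, Cnn1 and Cxcl14 to the 5 lowered genes that faded with the largest interaction. Ctnnd2 rose by 1.69 with MMS and fell by 1.71 without it. Lrrc17 was at 6.63, 6.51, 7.56 and 6.47 at 24 h and at 10.59, 10.78 and 10.44 at 72 h, with no called change in control cells (0.26, adjusted p = 0.27). Cxcl14, a chemokine of resting tissues, was at 6.89, 6.78, 7.53 and 6.76 and then at 11.28, 10.80 and 10.59, a 14.9-fold rise (log2 3.90 ± 0.20, adjusted p = 2.5e-16) that ended 1.01 above control (adjusted p = 0.00025).

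Lipid synthesis genes rose towards the control level. MMS had lowered 19 of 20 tested genes of sterol synthesis and uptake at 24 h, with a median of -1.01. From 24 to 72 h 17 rose and 1 fell with a median of 0.78, while 1 rose and 11 fell in control cells, and at 72 h the median effect was -0.02, with 3 raised and 3 lowered. All 19 were lowered genes that faded, with and without replicate 3. Sqle, the squalene epoxidase, was at 9.12, 9.24, 9.71 and 9.26 at 24 h and at 10.60, 10.51 and 10.49 at 72 h, where its difference from control was not called (-0.05, adjusted p = 0.80). Idi1 and Fdps, which make and join the isoprene units, rose by 1.31 and 1.18 (adjusted p = 6.9e-11 and 5.1e-12), and both fell in control cells (-0.57 and -0.39). Ebp, a sterol isomerase, was the 1 gene that fell (-0.35, adjusted p = 0.00027). Of 13 fatty acid synthesis genes 9 rose and 1 fell. Acaca, the acetyl-CoA carboxylase, and Scd1, a desaturase, rose by 0.82 and 0.95 with MMS and changed by -0.20 and -0.19 without.

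Most genes of the integrated stress response were lowered by MMS at 24 h, and less so at 72 h. MMS had lowered 37 of 44 tested ATF4 targets at 24 h (median -0.95) and lowered 31 at 72 h (median -0.48), with 29 rising and 6 falling in between (median 0.41). In control cells 6 rose and 19 fell. The interaction was called upward for 28, and 28 were lowered genes that faded, all of them without replicate 3 too, while 6 persisted (4 without replicate 3). Chac1, which degrades glutathione, was at 6.01, 6.13, 6.83 and 5.93 at 24 h and at 8.20, 7.80 and 7.64 at 72 h, still -0.75 from control (adjusted p = 0.00025). Atf5, a transcription factor of this response, was at 7.81, 7.85, 7.92 and 7.71 and then at 10.06, 9.85 and 9.63, and its effect shrank from -2.60 to -0.77. Aldh18a1, for proline synthesis, rose by 1.72, and Ddit3, or CHOP, rose by 1.05 and remained at -0.49 from control (adjusted p = 1.7e-13, 2.4e-14 and 9.9e-07). Trib3, a target of both ATF4 and CHOP, rose by 0.94 and was at -1.34 from control at 72 h. Slc7a11, on this list too, fell as above, as did Atf3 (-0.85, adjusted p = 0.0019) and Slc7a3, a cationic amino acid transporter (-0.71, adjusted p = 3e-05), which went further below control.

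The amino acid response element TGATGNAA, searched on both strands, was found in 16 of 36 genes of this list with a window (44.4%) and in 2.77% of all tested genes with a window. Of the 16, 13 rose, 2 fell and 1 was not called. Slc7a11 (chr3:50443564-50443863, minus strand) and Chac1 (chr2:119350992-119351291, plus strand) are shown since they had the largest fall and the largest rise among genes with this match, so that the same letters stand before genes that moved in opposite directions.
Slc7a11: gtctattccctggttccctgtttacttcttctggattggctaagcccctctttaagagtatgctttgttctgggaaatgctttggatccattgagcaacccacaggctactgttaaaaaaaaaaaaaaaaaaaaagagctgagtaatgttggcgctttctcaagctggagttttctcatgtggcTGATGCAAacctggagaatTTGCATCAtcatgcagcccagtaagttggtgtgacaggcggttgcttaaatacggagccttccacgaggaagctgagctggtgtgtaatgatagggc
Chac1: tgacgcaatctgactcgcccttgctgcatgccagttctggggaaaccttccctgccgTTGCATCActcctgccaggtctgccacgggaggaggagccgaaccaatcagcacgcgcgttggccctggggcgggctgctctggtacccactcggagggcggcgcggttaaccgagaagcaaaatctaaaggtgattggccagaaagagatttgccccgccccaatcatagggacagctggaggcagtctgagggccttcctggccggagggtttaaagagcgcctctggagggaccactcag

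Chaperones of the endoplasmic reticulum and of the cytosol differed. Of 37 ER genes 17 rose and 6 fell (median 0.16, control 0.14). Xbp1, a transcription factor of the unfolded protein response, was at 9.79, 9.72, 10.90 and 9.79 at 24 h and at 11.35, 11.43 and 11.31 at 72 h, a rise of 1.31 (adjusted p = 2.8e-08) that left it -0.06 from control (adjusted p = 0.87). Herpud1, of ER-associated degradation, rose by 1.23. Hspa5, or BiP, the main ER chaperone, rose by 0.39 (adjusted p = 5.9e-06, and 0.057 with the replicate number as a block) and was at -0.33 from control (adjusted p = 0.00019). Dnajb9 and Dnajc3, its co-chaperones, had been raised at 24 h and changed by -0.22 and -0.54 (adjusted p = 0.0087 and 0.00053). The call of Dnajb9 was lost with centred arrays (-0.14, adjusted p = 0.091), without MMS 72 h replicate 1 (-0.16, adjusted p = 0.087) and with the replicate block (adjusted p = 0.14). Dnajc3 rose by 0.23 instead when all its probe sets were averaged, so its direction depends on the probe set. Of 20 tested heat shock chaperones 14 fell and none rose (median -0.58, control -0.24), and 16 had been raised at 24 h. Cryab, a small heat shock protein, was at 12.57, 12.62, 12.51 and 12.65 and then at 10.97, 10.92 and 11.35, and its effect shrank from 1.86 to 0.53. Hspa1a, the inducible HSP70, and Fkbp4, an HSP90 partner, changed by -1.31 and -1.03 (adjusted p = 1.6e-12 and 1.5e-15).

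All 32 proteasome subunits had been raised at 24 h (median 0.58) and all 32 fell by 72 h, with a median of -0.66 against -0.18 in control cells, where 17 fell. At 72 h 4 were still raised. Psma1, of the core particle, was at 11.52, 11.50, 11.54 and 11.53 at 24 h and at 10.22, 10.50 and 10.66 at 72 h, 0.01 from control. Psmb6, a catalytic subunit, and Psmc1, an ATPase of the lid-bearing particle, changed by -0.83 and -0.90 (adjusted p = 1.2e-11 and 2e-11). Lysosome and autophagy genes changed little in sum, 9 higher and 8 lower of 29 with a median of 0.02, but 22 rose and none fell in control cells, and 21 had a called interaction downward. Gla, a lysosomal galactosidase, was at 9.61, 9.46, 9.32 and 9.51 and then at 8.36, 8.52 and 8.55, and its interaction was -1.32 (adjusted p = 5e-09). Mcoln1, a lysosomal calcium channel, changed by -0.50 with MMS and rose by 0.40 in control cells. Sqstm1, the p62 autophagy receptor, fell by 0.73, and Lamp2, of the lysosomal membrane, rose by 0.77, near its control rise of 0.67. The 21 tested cytosolic ribosomal proteins had a median of -0.07, with 2 higher and 4 lower. Of 35 subunits of the respiratory chain 16 fell and none rose (median -0.31, control -0.11), and of 26 glycolysis and hypoxia genes 12 rose and 5 fell, with 11 lowered genes that faded.

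**Figure D5:**
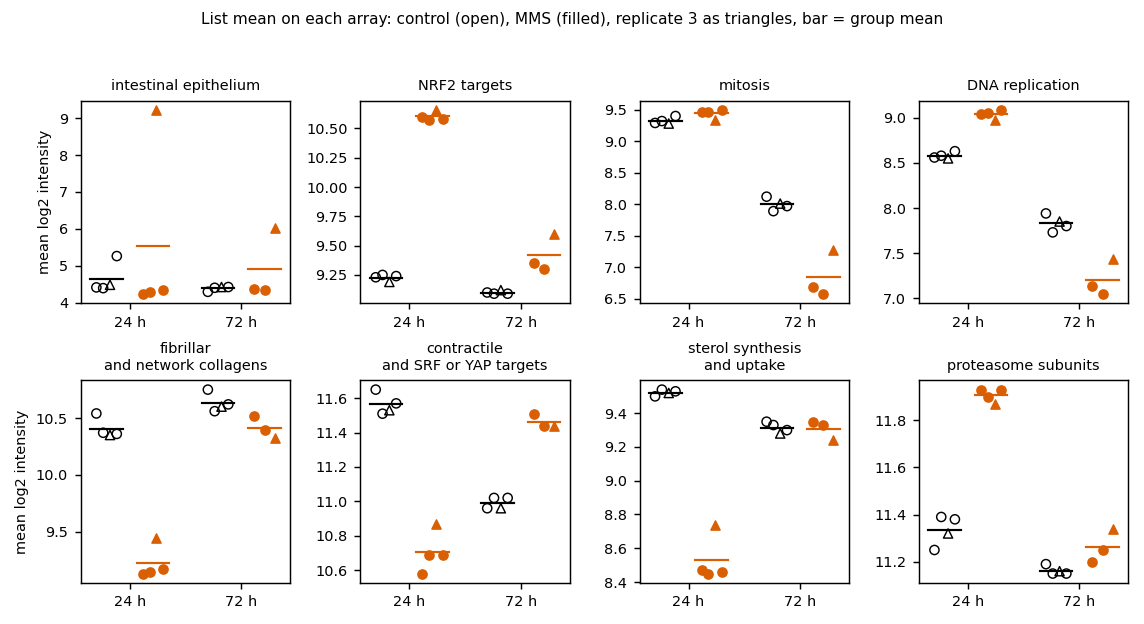
Mean log2 intensity over the tested genes of 8 lists on each array at 24 and 72 h, with control as open and MMS as filled symbols, replicate 3 as triangles and bars for group means. The intestinal mean over 28 tested genes reaches 9.23 in MMS 24 h replicate 3 and 6.01 in MMS 72 h replicate 3, and the latter lies above the other MMS 72 h arrays in mitosis (7.28 against 6.68 and 6.58) and NRF2 targets (9.60 against 9.35 and 9.30).

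Targets of p53 were the list in which raised responses persisted most often by count. Of 37 tested, 11 persisted and 14 faded (9 and 11 without replicate 3), where 3.69% and 13.7% of all genes did. MMS raised 27 at 24 h (median 0.44) and 20 at 72 h (median 0.30), and between the times 13 rose and 9 fell, with a median of -0.04 that was 0.05 with centred arrays. Between the times 10 rose and 10 fell without replicate 3, with a median of -0.002. Cdkn1a, the cyclin-dependent kinase inhibitor p21, and Mdm2, the ubiquitin ligase of p53, were chosen after their values were seen. Cdkn1a was at 12.92, 12.74, 12.55 and 12.70 at 24 h and at 13.34, 12.99 and 12.83 at 72 h, so that replicate 1 at 24 h and replicate 3 at 72 h overlapped. Its rise of 0.33 (adjusted p = 0.0011) was not called in a model of the 2 MMS groups alone (adjusted p = 0.097, and 0.055 with the replicate block), and it stood 0.36 and 0.50 above control (adjusted p = 0.00016 and 1.8e-05). Mdm2 fell by 0.38 (adjusted p = 0.00013) and remained 0.82 above control. Fas, the death receptor, was at 8.62, 8.58, 8.70 and 8.58 and then at 9.42, 9.46 and 9.27, a rise of 0.76 beside 0.92 in control cells, with effects of 0.86 and 0.71. Pml, of nuclear bodies, fell by 0.74 and was still 0.67 above control, whereas Ckap2 and Gtse1, which are also expressed with the cell cycle, changed by -1.49 and -0.83.

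Growth arrest genes showed no common direction, with 6 higher and 5 lower of 16 tested. Cdkn2b, the kinase inhibitor p15, rose by 1.02 (adjusted p = 2e-13) with no called change in control cells (0.09, adjusted p = 0.33), and its effect went from -0.17 to 0.76. Cdkn2c, the inhibitor p18, fell by 0.65 with MMS and rose by 0.24 in control cells. Gas1, a growth arrest membrane protein, rose by 2.71 and by 2.55 without MMS. Gadd45b, a stress sensor of the growth arrest family, changed by -0.45 beside -0.58 in control cells, and its 0.30 above control was called at 72 h alone (adjusted p = 0.012), with no called interaction (0.12, adjusted p = 0.51).

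Lowered responses that persisted were largest for genes that rose with time in both treated and control cells. Igfbp5, a binding protein of insulin-like growth factors, was at 4.94, 5.22, 5.94 and 5.18 at 24 h and at 6.99, 7.14 and 7.10 at 72 h. Its rise of 1.75 (adjusted p = 1.1e-11) ran beside one of 2.01 in control cells, and its effects were -3.02 and -3.28. Itgbl1, an integrin-like secreted protein, Rtl3, of retrotransposon origin, and Capn6, a calpain without protease activity, rose by 2.16, 2.44 and 1.39 with MMS and by 2.55, 2.28 and 1.45 without. Fgf5, a fibroblast growth factor, was at 4.31 to 5.06 at 24 h, near the background, and at 5.36 to 5.43 at 72 h, -1.97 from control. Its rise of 0.72 (adjusted p = 0.016) was not called without MMS 24 h replicate 1 (0.60, adjusted p = 0.064) or when all its probe sets were averaged (0.29, adjusted p = 0.11). Cxcl12, the stromal chemokine for CXCR4, rose by 1.58 with MMS and 1.49 without, with effects of -1.28 and -1.19. Abi3bp, a matrix protein, rose 13.2-fold, from 4.71, 4.54, 6.32 and 4.54 to 8.74, 8.95 and 8.55, and counted as persisting with all arrays but as fading without replicate 3. Of 14 tested genes of insulin-like growth factors and their binding proteins, 6 persisted and 4 faded as lowered genes. Igf1 rose by 1.70 and by 1.20 in control cells, and Igfbp3 by 2.08 and 3.20, so that its effect deepened from -0.47 to -1.60.

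Raised responses that persisted were largest for Pm20d1, Dgka, H3c11, Tex15 and Prkaa2. Dgka, a diacylglycerol kinase, was at 9.09, 9.04, 9.09 and 9.06 at 24 h, with a mean of 9.07 at both times and overlapping arrays, and stood 2.17 and 1.50 above control (adjusted p = 1.3e-07 and 0.00036). Pm20d1, which makes N-acyl amino acids, was at 5.68 to 6.30 and then at 5.59 to 5.81, above control by at least 2.97-fold and 2.45-fold, since all its control arrays at both times lay below the background limit. Prkaa2, a catalytic subunit of AMP-activated kinase, was at 6.64 to 7.23 and then at 6.79 to 7.08, and Tex15, a meiotic gene that acts in recombination, at 6.61 to 7.06 and then at 6.49 to 6.91. None of these 4 was called between 24 and 72 h (adjusted p = 0.43 or above). H3c11, a replication-dependent histone whose probes may bind transcripts of its cluster, changed by -0.86 beside -0.64 in control cells and stood 1.83 and 1.61 above control. Id1, an inhibitor of differentiation factors, and Dusp5, a phosphatase of ERK, likewise fell with and without MMS (-1.60 and -1.53 for Id1, -1.86 and -1.83 for Dusp5) and stayed raised. Dusp4, of the same family, changed by -2.43 and -2.19 and moved from the persisting to the fading class without replicate 3.

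Responses that began late were fewer. Il6, the inflammatory cytokine, was at 5.54, 5.22, 5.33 and 5.42 on the MMS 24 h arrays and at 6.44, 6.34 and 6.29 on the MMS 72 h arrays. It rose by 0.98 ± 0.13 (adjusted p = 3.3e-07) and fell by 0.53 in control cells (adjusted p = 0.00091), so that an effect of -0.15 at 24 h became one of 1.36 at 72 h. Prg4, or lubricin, which coats joint surfaces, was at 6.95, 6.92, 6.95 and 7.07 and then at 10.12, 10.26 and 9.87, an 8.64-fold rise against a control rise of 1.49 on the log2 scale. Gap43, a growth cone protein that fibroblasts can also express, rose by 1.24 to a level 1.71 above control, and Cox6b2, a cytochrome oxidase subunit, by 2.29 to one 1.26 above control. Cox6b2 ranged widely in control cells at 72 h, where replicate 1 was at 6.22 and the other 3 between 7.80 and 8.08.

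In other late effects the larger change was that of the control cells. Cxcr6, a chemokine receptor, was at 6.95, 6.91, 6.65 and 6.74 at 24 h and at 6.44, 6.36 and 6.68 at 72 h of MMS (-0.32, adjusted p = 0.086, and -0.47, adjusted p = 0.035, without replicate 3, -0.45, adjusted p = 0.001, with all probe sets averaged, and -0.43, adjusted p = 0.0029, with array weights), while it fell at least 4.31-fold in control cells, where 3 of the 72 h arrays lay below the background limit. Ppp1r3c, which targets a phosphatase to glycogen, was at 4.15, 3.81, 4.25 and 4.18 and then at 4.96, 5.16 and 4.74 with MMS, where all 24 h arrays lay below the background limit, and rose at least 6.91-fold to a mean of 7.21 in control cells, where 2 of the 24 h arrays did. Nrk, a kinase of the placenta and embryo, was at 6.91 to 7.21 and then at 7.34 to 7.50 (0.33, adjusted p = 0.083), against a control rise of 2.02. Ptgs2, the inducible cyclooxygenase, changed by -0.81 with MMS and by -2.06 without, and its effect grew from 0.62 to 1.87.

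Several of the largest rises between 24 and 72 h were shared with control cells. Cxcl15, a chemokine first described in lung, was at 4.09, 3.73, 4.16 and 3.83 at 24 h, below the background limit, and at 8.49, 8.67 and 8.34 at 72 h. The rise was at least 17.1-fold (adjusted p = 4.4e-18), with 20.0-fold in control cells and an interaction that was not called (0.23, adjusted p = 0.60), and Cxcl15 stood at -1.20 from control at 72 h. With the MMS 24 h arrays set to the background limit the interaction was -0.22, so its sign is not settled. Pamr1, a secreted protease-like protein, rose by 3.76 and 3.45 and was not called against control at either time. Penk, the enkephalin precursor, was at 6.11, 5.94, 6.28 and 5.83 and then at 10.39, 10.36 and 10.01, a rise of 4.22 with MMS and 2.75 without that took it from -0.97 to 0.49 against control. Gpm6b, a membrane glycoprotein, and Ppbp, a platelet chemokine precursor, rose by 3.70 and 3.53 with control rises of 2.11 and 1.27, and Bmp4, a bone morphogenetic protein, by 3.01 and 1.61. Interferon-stimulated genes were higher for 9 of 24 with MMS and 14 of 24 without, none lower. Ifit3 and Ifit1, which bind viral RNA, rose with MMS by 1.43 and, for Ifit1 with 3 of 4 arrays at 24 h below the background limit, by at least 1.44, and by 1.61 and at least 1.91 without. Immediate early genes of the AP-1 list fell in both, 19 of 26 with MMS (median -0.84) and 19 of 26 without (median -0.71). The interaction was called upward for 7 of the 26 and downward for 4, where 12.4% and 16.5% of all genes were. In the class of late raised genes, 1.51% of all genes, were 4 of the 26, with and without replicate 3. Egr2, an early growth response factor, changed by -1.72 with MMS and -2.47 without. Of 27 cytokine, chemokine and prostaglandin genes 14 rose and 5 fell, of 21 genes of TGF-beta, BMP and ID proteins 7 rose and 10 fell, and of 6 metallothionein and zinc export genes 1 rose and none fell with all arrays. Of these 6, 1 rose and 2 fell without replicate 3, and of the 27 cytokine, chemokine and prostaglandin genes 11 rose and 5 fell.

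Calls among markers of other cell types are given beside those over all genes, of which 20.2% were higher and 24.3% lower. Of the tested genes of each list, 2 of 13 rose and 3 fell for skeletal muscle, 2 of 8 rose for endothelium, 1 of 8 rose and 1 fell for cartilage and bone, none of 9 was called for epidermis, 1 of 6 fell for erythroid cells, 3 of 11 rose and 3 fell for neural cells, and 1 of 28 rose and 1 fell for intestinal epithelium. Replicate 3 lay far above the other arrays of its group for many intestinal markers, which limits the calls of that list. Without replicate 3, 1 intestinal gene rose and none fell. Of 18 tested macrophage genes 3 fell and none rose, and the other 15 were not called. The 3 were Cd68, an endosomal sialomucin, Cd14, the endotoxin coreceptor, and Csf1r, the receptor of macrophage colony-stimulating factor. Cd68 was at 8.49, 8.60, 8.08 and 8.43 at 24 h and at 5.34, 5.27 and 6.05 at 72 h, with control means of 4.95 and 4.69, and fell by 2.85 (adjusted p = 4.2e-15). Cd14 was at 8.42, 8.26, 8.09 and 8.36 and then at 5.86, 5.72 and 6.28, and Csf1r at 7.65 to 7.96 and then at 5.66 to 6.22. The mean of the 20 macrophage markers was 4.61 to 5.08 on the MMS 24 h arrays, highest in replicate 3, and 4.30 to 4.37 on the MMS 72 h arrays, and their part in other results was not tested. Of 9 adipocyte genes 2 rose and 2 fell. Pparg, the adipogenic nuclear receptor, changed by -2.13 beside -1.02 in control cells, and Fabp4, a fatty acid binding protein, by 2.01 beside -0.51. Krt19, an epithelial keratin on the intestinal list, fell by 0.61 (adjusted p = 0.04), was highest in MMS 24 h replicate 3 at 9.05, and was not called without replicate 3 (-0.39, adjusted p = 0.25), without MMS 24 h replicate 3 alone (-0.35, adjusted p = 0.23), without any 1 of the 3 MMS 72 h arrays (-0.57 to -0.66) or with the replicate block (adjusted p = 0.056). Epcam, an epithelial adhesion molecule, rose by 0.78 with this probe set but differed by -0.17 when all its probe sets were averaged.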

How the data were processed

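Expression was measured on 35 Affymetrix mouse arrays, and the authors deposited log2 probe set intensities that they had background-corrected, normalized across arrays and summarized with RMA. Intensities lay between 2.44 and 14.62, with array medians of 4.98 to 5.09. The number of arrays limits the precision. RMA equalises the distributions of the arrays, so a change shared by most genes would not be seen. The methods name a smaller design of the same array family than the one whose 45101 probe sets the values belong to. Probe sets were named with the platform annotation: 34958 had 1 gene symbol, 932 several and 9211 none, and 34754 of the first (99.4%) matched a RefSeq gene. The probe set with the highest mean stood for each of 18194 genes, and genes whose mean was above the 40th percentile (log2 4.40) in at least 1 group were tested, 14135 in all, with 4059 below it. There were 0 array columns of other samples.

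A linear model of 9 groups with 26 residual degrees of freedom was fitted with limma 3.58.1 (R 4.3.3), moderated by empirical Bayes, and p-values were adjusted by Benjamini-Hochberg within each contrast, with calls at an adjusted p under 0.05. The contrasts were MMS 72 h against MMS 24 h, the same for control, the difference of both (interaction), and MMS against control at 24 and 72 h. They share arrays, so their values stand side by side. The study's time course service could not be run again and a linear model took its place. The scripts were tested on simulated data. Members and gene lists were chosen with earlier results of these data known.

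Genes are named by rule: the 10 largest rises and falls whose arrays do not overlap and that are also called without replicate 3, the 5 leading genes of each response class, up to 4 per direction and list, and Gclc, Glul, Gadd45b, Nfe2l2, Hspa5 and Ddit3, which the study discusses. Cdkn1a, Mdm2 and Srxn1 were added after their values were seen. Where arrays of a named gene lay below log2 4.40 and setting them to that limit moved a change by over 0.1, they were set to it and the change is given as a bound, a step added after the data were seen.

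Replicate numbers come from the sample titles. Deviations from the group means correlated between same-numbered MMS 24 h and MMS 72 h arrays (r = 0.250, 0.230 and 0.451 for replicates 1 to 3, across genes, which are not independent), and not between control arrays (-0.153 to -0.007). By the criterion of r over 0.1 in every pair the MMS numbers were taken as pairs, although MMS 72 h replicate 2 correlated most with MMS 24 h replicate 4 (0.305). Differently numbered MMS arrays among replicates 1, 2 and 4 passed it too (0.162 to 0.305), while those with 1 array of replicate 3 were negative (-0.423 to -0.232). The criterion therefore cannot show that replicates 1 and 2 are pairs, and the block values are an alternative only. The replicate number entered as a block in the model of all arrays and in a model of the 2 MMS groups, and block values in the report are from the latter.

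Alternatives were arrays centred or quantile-normalized again, averaging the probe sets that share a symbol, no filter or a filter at the 60th percentile, 2 or 4 groups in the model, array weights, trend and robust moderation, and leaving out each array, replicate 3 of both MMS groups, 4 arrays for intestinal transcripts or the 8 h arrays. These 4 were replicate 3 of control 0 h, MMS 1 h, MMS 24 h and MMS 72 h. Control 24 h replicate 4, with its weaker trace, was kept in that setting. Promoter windows are those of RefSeq for GRCm38.p6, and each motif was searched by itself, so a base may belong to several.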

Additional observations from a re-analysis of the deposited data

Results flagged for a closer look

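In 33 of 402 groups of 4 arrays (134 named genes in MMS 24 h, control 24 h and control 72 h, 8.21%) 1 array lay far from the other 3, where chance gives about 1 in 20. Of these, 12 were in MMS 24 h replicate 3, the array with intestinal transcripts. That array stood apart for Abi3bp at 6.32 against 4.54 to 4.71, Aspn at 7.65 against 5.58 to 5.86, Blvrb at 10.55 against 10.95 to 10.97, Bmp4 at 7.85 against 6.93 to 7.07, Col3a1 at 11.33 against 9.66 to 9.90, Cxcl14 at 7.53 against 6.76 to 6.89, Egr2 at 7.92 against 7.44 to 7.48, Fkbp4 at 9.80 against 9.87, Krt19 at 9.05 against 7.92 to 8.05, Lrrc17 at 7.56 against 6.47 to 6.63, Psmb6 at 11.84 against 12.06 to 12.07 and Xbp1 at 10.90 against 9.72 to 9.79, as log2 intensities with the range of the other 3 arrays. Control 72 h replicate 1 stood apart for Abi3bp at 10.69 against 10.35 to 10.41, Aspn at 11.46 against 11.27 to 11.29, Cox6b2 at 6.22 against 7.80 to 8.08, Ebp at 8.67 against 8.85 to 8.87, Egr2 at 6.04 against 5.72 to 5.77, Fabp4 at 7.95 against 8.66 to 8.75, Mcoln1 at 8.62 against 8.04 to 8.12 and Tk1 at 7.62 against 7.85 to 7.89. Control 24 h replicate 4 stood apart for Ankrd1 at 9.57 against 9.23 to 9.29 and Egr2 at 8.44 against 8.22 to 8.25. Control 24 h replicate 1 stood apart for Col5a1 at 13.31 against 13.15 to 13.16, Mdm2 at 11.25 against 10.95 to 10.98, Psma1 at 10.41 against 10.71 to 10.75, Srxn1 at 8.74 against 8.55 to 8.56 and Tagln2 at 11.52 against 11.18 to 11.21. MMS 24 h replicate 1 stood apart for Ddit3 at 8.85 against 8.73 to 8.75. Control 24 h replicate 3 stood apart for Ddit3 at 9.79 against 9.87 to 9.88, Krt19 at 9.21 against 9.38 to 9.40 and Sprr1a at 4.82 against 4.62 to 4.63. Control 72 h replicate 3 stood apart for Epcam at 5.64 against 5.99 to 6.03. Control 72 h replicate 2 stood apart for Xrcc1 at 7.05 against 7.14 to 7.15.

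The change from 24 to 72 h differed between MMS-treated and control cells, by the interaction term in limma, for 1759 genes upward and 2339 downward. Among the named genes 19 were called in opposite directions in treated and control cells. The interaction on the log2 scale was Acaca 1.01, Actg2 3.87, Chac1 1.99, Cnn1 3.58, Ctnnd2 3.40, Fabp4 2.52, Fdps 1.57, Idi1 1.87, Il6 1.50, Myl9 2.11, Scd1 1.14, Sqle 1.47 and Tgfb2 2.11 for those that rose with MMS and fell without. It was Cdkn2c -0.89, Dnajb9 -0.73, Gla -1.32, Mbd4 -1.18, Mcoln1 -0.90 and Mmp13 -5.23 for those that fell with MMS and rose without. The value of Mmp13 includes control 24 h and MMS 72 h arrays below the background limit, and its size is at least 3.93 with those set to the limit.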

How the results depend on the processing

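Of 420 counts recomputed under the alternatives, 412 stayed within 1.5 times, and of 2813 values of named genes 2774 kept their direction and call. Centring each array on its median turned the balance of the MMS effect at 24 h, of its change and of the faded and late classes, as given with those counts. It lowered the number of genes with a falling MMS effect from 2339 to 1525, raised that with a rising one from 1759 to 2265, and changed raised genes that faded from 1936 to 1235 and lowered ones from 1442 to 1857. Array weights gave 3582 genes with a falling MMS effect, 2669 raised and 2948 lowered at 72 h, and 416 raised and 579 lowered genes that began late. Without replicate 3 of both MMS groups 302 lowered genes persisted in place of 480. The cause of these shifts was not tested. Averaging all probe sets reversed Dnajc3 (0.23) and Epcam (-0.17), which rests on probe sets that differ. Of 120 list medians 20 moved by more than the spread between arrays, 13 of them with centred arrays.

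Leaving out 1 array at a time gave 2428 to 2813 higher and 3025 to 3475 lower genes for MMS 72 h against 24 h, of which 433 to 541 and 486 to 567 at 2-fold. Control cells gave 2219 to 2484 and 2390 to 2580, the interaction 1549 to 1782 and 2057 to 2439, MMS against control at 24 h 3193 to 3497 and 2557 to 2669, and at 72 h 1091 to 1492 and 1063 to 1528. The classes held 1710 to 2014 (faded, raised), 432 to 560 (persisted, raised), 164 to 230 (late, raised), 1286 to 1468 (faded, lowered), 326 to 546 (persisted, lowered) and 212 to 301 (late, lowered) genes.

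With the replicate number as a block in the model of all arrays, 2874 genes were higher and 3397 lower at 72 h of MMS, 473 and 501 of them at 2-fold, the interaction was called for 1788 and 2268, MMS against control for 3555 and 2755 at 24 h and 1466 and 1424 at 72 h, and the classes in the above order held 1887, 529, 229, 1458, 464 and 274. No named gene changed its call. A model of the 2 MMS groups alone gave 2609 higher and 3099 lower genes. In the model of the 2 MMS groups with the replicate block the counts were 1941 and 2319, with 460 and 503 at 2-fold. There Cdkn1a, Dnajb9, Glul, Hspa5, Krt19 and Mgmt lost their call, and Nrk gained one (adjusted p = 0.036). Nrk was also called with centred or quantile-normalized arrays, array weights, smaller models and without the 8 h arrays (0.33 to 0.42). Values near log2 4.40 are close to the array background, which limits the size of the change that can be seen for genes such as Gsta2, Lce1f, Mmp13, Cxcl15, Pm20d1, Fgf5 and Ppp1r3c.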
